A study of Mus musculus with 4 samples.

Results

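Collagen chains of types I, III, V, VI and XV were examined in mouse soleus muscle with and without hormone-sensitive lipase (HSL). The genes were Col1a1, Col1a2, Col3a1, Col5a1, Col5a2, Col6a1, Col6a2, Col6a3 and Col15a1, and a probe set was taken as a member when the platform annotation gave it exactly 1 gene symbol and that symbol was on this list. All 9 genes were on the array, with 15 of its 12488 probe sets, and 5 of the genes had more than 1. They were 9 of 8252 genes named by at least 1 such probe set.

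Soleus, a slow-twitch calf muscle, was taken from HSL-null and from wildtype female mice aged 6 months, and total RNA was measured on 4 arrays. HSL, the product of Lipe, hydrolyses stored acylglycerols and cholesteryl esters. Each genotype was 1 pool of muscle from 5 mice, measured on 2 arrays that the labels call technical duplicates. The strain, the way the Lipe allele was made and any treatment are not given in the labels. A single pool stands for each genotype, so differences have no replicate check across mice and carry no p-value; the errors below come from duplicate arrays and cover array error only. Lipe had intensities of 16.2 and 19.4 on the HSL-null arrays, against 71.4 and 70.2 on the wildtype arrays, the direction the genotype labels imply, although the position of the disruption is not given in them. The 5 slow muscle fibre markers examined were all bright, with summed intensities of 24824 and 25698 on the HSL-null arrays and of 23716 and 25200 on the wildtype arrays.

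Collagens are proteins of 3 chains wound into a triple helix. Types I, III and V are fibrillar: type I makes up most of the thick fibrils of tendon and of the connective tissue around muscle fibres, type III co-assembles with it in finer fibrils, and type V nucleates fibrils and limits their width. Types VI and XV do not form banded fibrils. Type VI makes beaded filaments next to the basement membrane of muscle fibres, and type XV lies in the basement membrane zone of muscle fibres and capillaries. In muscle these chains are made chiefly by fibroblasts of the connective tissue, not by the muscle fibres.

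The chains of types I, III and XV were higher in the HSL-null pool by about 1.3- to 1.4-fold on the brightest probe set of each gene. Of the type VI chains, Col6a2 and Col6a3 were higher by about 1.1-fold and the brightest Col6a1 probe set overlapped. With each array centred on its median, Col6a3 alone of type VI stayed apart. Type V chains gave no common direction. Of 15 probe sets, 14 passed the filter on low values, which asked for a mean intensity of at least 27.7, the array-wide median. Both HSL-null arrays lay above both wildtype arrays for 10 of these 14, against 19.5% of the 6208 probe sets that passed the filter. Both HSL-null arrays lay below both wildtype arrays for 0 of the 14, against 21.1% of all, and for 4 the genotypes overlapped. The median log2 difference, HSL-null minus wildtype, was 0.16 over the 14 probe sets and -0.0022 over all 6208, and 13 of the 14 lay above 0. The mean was at least 1.25-fold higher for 4 of the 14, against 4.41% of all, and at least 1.5-fold higher for 0, against 0.822% of all. A stricter rule, at least 1.5-fold higher on each of the 4 array pairs, was met by 0 of the 14 and by 0.226% of all. With each array centred on its median the count was 7 of 14 higher and 0 lower, against 13.4% and 27.8% of all. These counts describe the 2 pools. The 14 probe sets are not independent, since 5 genes have several and the chains of one type are made together.

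**Figure D1:**
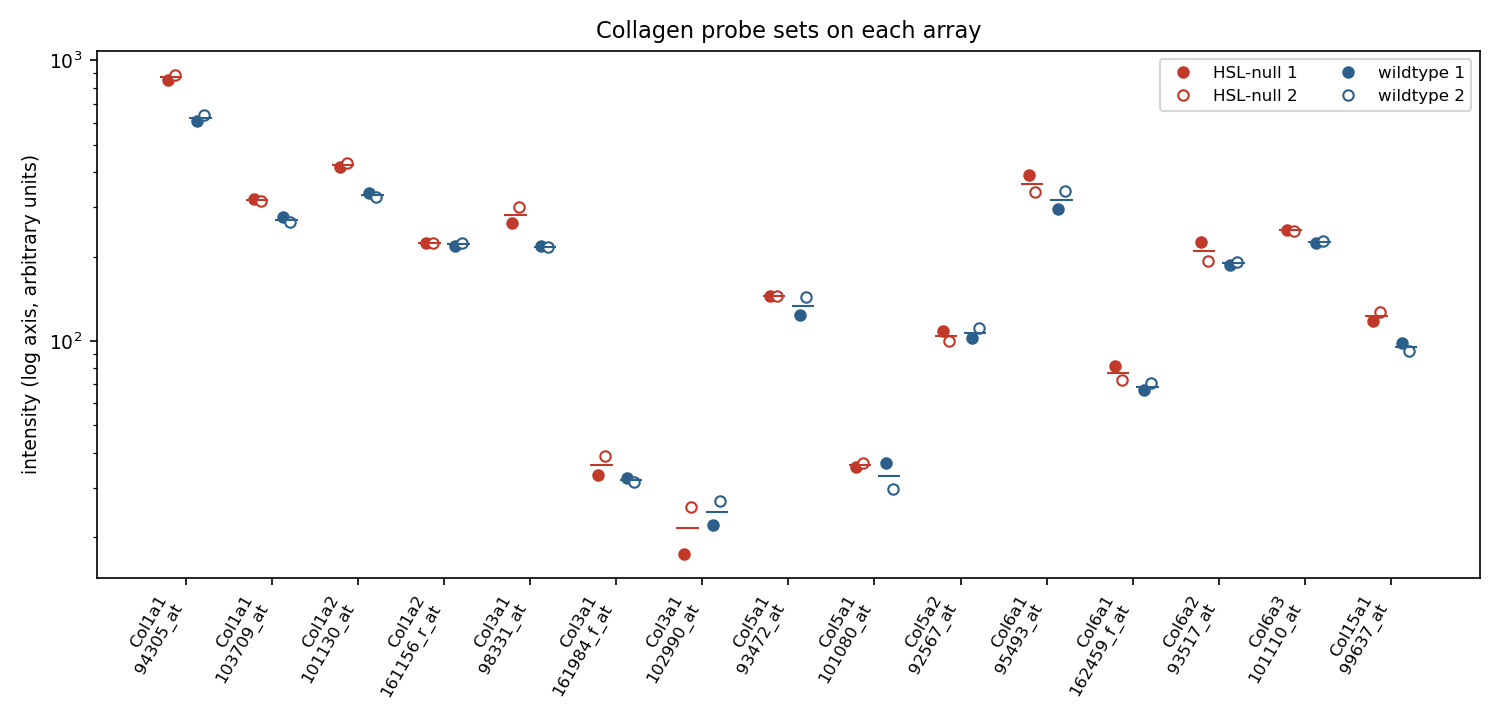
Intensity (log axis, arbitrary units) of the 15 collagen probe sets on each array. HSL-null arrays are red and wildtype arrays blue, array 1 filled and array 2 open, with a line at the mean of the 2 arrays. Levels can be compared between arrays within a probe set and not between probe sets. For the brightest probe sets of Col1a1, Col1a2, Col3a1 and Col15a1 the red points stand clear above the blue ones, while for Col5a2 they overlap.

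Promoter sequence was printed for the 3 genes whose mean was at least 1.25-fold higher and that had an entry in the RefSeq promoter table (GRCm38.p6), to show what lies upstream of the chains with the largest differences. Of the 9 genes, 7 had an entry, and Col1a1 and Col5a2 did not. Each sequence runs 5′ to 3′ over the 250 bases before the annotated start, on the plus strand. The windows were chr6:4505368-4505617 for Col1a2, chr1:45311288-45311537 for Col3a1 and chr4:47207762-47208011 for Col15a1. Capitals mark CCAAT (the box bound by NF-Y), TATAA (the core of a TATA box) and GGGCGG (a GC box), searched on both strands.
Col1a2: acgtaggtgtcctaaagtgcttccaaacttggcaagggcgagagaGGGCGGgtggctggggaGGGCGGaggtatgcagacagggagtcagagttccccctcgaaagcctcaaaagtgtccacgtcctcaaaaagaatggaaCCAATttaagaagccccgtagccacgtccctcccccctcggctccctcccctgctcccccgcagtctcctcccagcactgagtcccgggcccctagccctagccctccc
Col3a1: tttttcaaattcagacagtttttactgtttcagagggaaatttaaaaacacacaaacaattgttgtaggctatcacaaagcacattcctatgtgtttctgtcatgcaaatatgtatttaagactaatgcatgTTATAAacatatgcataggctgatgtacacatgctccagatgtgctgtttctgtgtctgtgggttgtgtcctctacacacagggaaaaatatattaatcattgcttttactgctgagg
Col15a1: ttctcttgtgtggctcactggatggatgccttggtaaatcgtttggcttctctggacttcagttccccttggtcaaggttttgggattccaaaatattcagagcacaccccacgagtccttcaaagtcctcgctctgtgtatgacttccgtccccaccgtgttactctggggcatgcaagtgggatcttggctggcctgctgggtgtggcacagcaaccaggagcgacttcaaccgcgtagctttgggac
The Col1a2 window held GGGCGG beginning at -205 and at -188 and CCAAT beginning at -109, counted from the start. The Col3a1 window held TATAA at -117 on the plus strand, overlapping a match on the other strand that begins at -118. The Col15a1 window held none of the 3. Over the same window, 33.8% of 32851 promoters held CCAAT, 22.8% TATAA and 32.7% GGGCGG, so that the 3 windows shared none of these motifs and each motif is common. A match is a run of letters and not a measured binding site.

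The largest difference among these chains was that of a type I chain. Col1a1, which encodes the chain present in a pair in each type I molecule, had intensities of 851.3 and 889.3 on the HSL-null arrays, against 607.3 and 640.5 on the wildtype arrays. The HSL-null arrays were both higher, the nearest pair by 1.33-fold. The mean was 870.3 ± 26.9 in the HSL-null pool and 623.9 ± 23.5 in the wildtype pool (SD, n = 2 arrays), 1.40-fold higher, a log2 difference of 0.48 ± 0.050 (SE from the duplicates). Of all 6208 probe sets, 1.58% had a higher difference, and of the 3096 brightest (at or above the 75th percentile, intensity 107), 0.517% did. The second Col1a1 probe set, 103709_at, had 319.9 and 316.6 on the HSL-null arrays, against 277.1 and 264.7 on the wildtype arrays. It too was higher on both HSL-null arrays, by a log2 difference of 0.23 ± 0.034. The probe sets therefore gave one direction and unequal sizes: the difference between their log2 differences was 0.25 ± 0.081.

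Col1a2, which encodes the other chain of type I, had 418.0 and 432.3 on the HSL-null arrays, against 336.8 and 327.3 on the wildtype arrays, for probe set 101130_at. Both HSL-null arrays were higher, and the log2 difference was 0.36 ± 0.032, or 1.28-fold. The second probe set, 161156_r_at, did not show it. It had 223.7 on each HSL-null array, against 218.2 and 224.1 on the wildtype arrays, which overlap, and its log2 difference was 0.017 ± 0.019. The gap between the Col1a2 probe sets was 0.34 ± 0.047, so that the difference for this gene rests on 1 of its 2 probe sets. The suffix _r marks a probe set for which the array's design rules were relaxed.

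Col3a1, the single chain of type III collagen, had 262.9 and 299.3 on the HSL-null arrays, against 218.2 and 215.6 on the wildtype arrays, for probe set 98331_at. The genotypes did not overlap, and the log2 difference was 0.37 ± 0.094, or 1.29-fold. Probe set 161984_f_at, whose suffix _f marks probes shared with related sequences, was dim, with 33.2 and 38.8 on the HSL-null arrays, against 32.6 and 31.5 on the wildtype arrays. Its log2 difference of 0.16 ± 0.12 came mainly from HSL-null array 2, and it was 0.051 without that array. Without HSL-null array 1 it was 0.28. The third probe set, 102990_at, was below the filter and overlapped, with 17.4 and 25.7 on the HSL-null arrays and 22.1 and 27.0 on the wildtype arrays.

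Type V collagen had small differences. Col5a1, which encodes the chain found in all common forms of type V, had 144.7 and 145.2 on the HSL-null arrays, against 123.6 and 143.0 on the wildtype arrays, for probe set 93472_at. The lowest HSL-null array lay 1.01-fold above the highest wildtype array, and the log2 difference was 0.12 ± 0.11. Wildtype array 1 set this size: the difference was 0.020 without it and 0.23 without wildtype array 2. Probe set 101080_at had 35.5 and 36.8 on the HSL-null arrays, against 36.6 and 29.7 on the wildtype arrays, which overlap. Col5a2, the second chain of type V, had 108.8 and 99.6 on the HSL-null arrays, against 102.7 and 110.8 on the wildtype arrays, a log2 difference of -0.035 ± 0.084. It was the single member above the filter with a mean difference below 0. In the gene table Col5a2 is the next protein-coding gene after Col3a1 on chromosome 1. Its difference lay within its standard error and was 0.028 without HSL-null array 2 and 0.020 without wildtype array 2.

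Type VI collagen had a higher mean in the HSL-null pool on each of its 4 probe sets. Mutations in its chains cause the Bethlem and Ullrich muscle disorders in humans. Col6a3, the largest of the chains, had 249.2 and 246.6 on the HSL-null arrays, against 223.1 and 227.9 on the wildtype arrays. Its duplicates agreed closely and the genotypes did not overlap, with a log2 difference of 0.14 ± 0.017. Col6a2 had 224.8 and 193.4 on the HSL-null arrays, against 186.7 and 191.1 on the wildtype arrays, a difference of 0.14 ± 0.11. Here HSL-null array 1 was high and array 2 hardly above wildtype: the difference was 0.25 without HSL-null array 2 and 0.034 without HSL-null array 1. Col6a1 had 389.6 and 338.7 on the HSL-null arrays, against 295.7 and 342.0 on the wildtype arrays, for probe set 95493_at. These overlap, and the difference was 0.19 ± 0.15. Its second probe set, 162459_f_at, had 81.3 and 72.5 on the HSL-null arrays, against 66.8 and 70.8 on the wildtype arrays, and did not overlap. That difference was 0.16 ± 0.093, with 0.076 without HSL-null array 1 and 0.24 without HSL-null array 2. Col6a2 and Col6a1 are neighbouring protein-coding genes on chromosome 10, and HSL-null array 1 was the highest of the 4 for both. It was also the highest for Col6a3, which lies on chromosome 1, so this order is not particular to the neighbours.

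Col15a1, the chain of type XV collagen, had 117.8 and 127.3 on the HSL-null arrays, against 98.2 and 92.3 on the wildtype arrays. Both HSL-null arrays were higher, the nearest pair by 1.20-fold. The log2 difference was 0.36 ± 0.072, or 1.29-fold, and 3.38% of all 6208 probe sets had a higher one. In size it lay close to the brightest probe sets of Col1a2 and Col3a1.

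**Figure D2:**
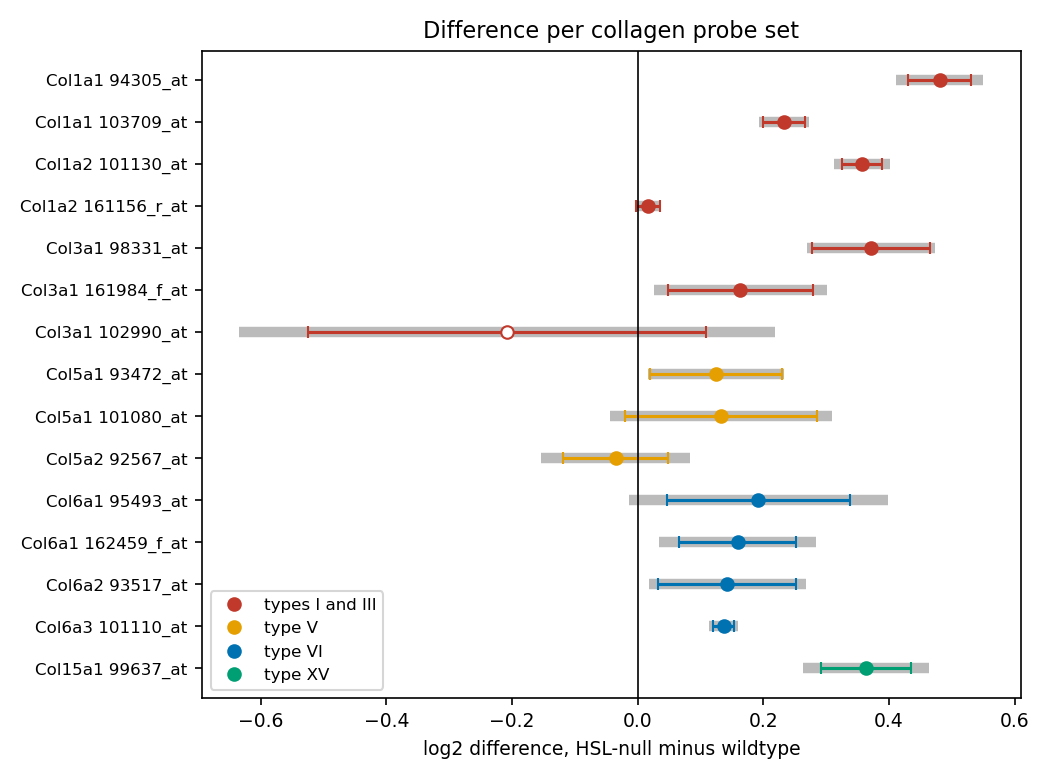
Log2 difference, HSL-null minus wildtype, for each collagen probe set, coloured by collagen type. Points are differences of means with standard errors from the duplicates, grey bars span the 4 array-to-array differences, and the open point is the probe set below the filter. The grey bars of Col1a1, Col1a2 101130_at, Col3a1 98331_at and Col15a1 lie clear of 0, from 0.19 upwards. Those of Col5a2, Col1a2 161156_r_at, Col3a1 102990_at, Col5a1 101080_at and Col6a1 95493_at cross it.

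Types were set against each other within each array, using the brightest probe set of each gene and log2 values centred on the gene's mean over the 4 arrays. The mean of Col1a1, Col1a2 and Col3a1 was 0.15 and 0.25 on the HSL-null arrays, against -0.20 and -0.20 on the wildtype arrays. That of the type V chains was 0.053 and -0.0083 on the HSL-null arrays, against -0.10 and 0.058 on the wildtype arrays. That of the type VI chains was 0.15 and 0.0062 on the HSL-null arrays, against -0.12 and -0.033 on the wildtype arrays. Types I and III were thus clearly apart between genotypes, type V overlapped, and type VI was apart by a small margin, which it lost with median centring of the arrays. The difference of types I and III exceeded that of type V by 0.36 ± 0.11 and that of type VI by 0.25 ± 0.13, and the genotypes did not overlap on either ratio. Against type VI the value was 0.12 without HSL-null array 2 and 0.37 without HSL-null array 1. It exceeded that of type XV by 0.039 ± 0.048, with overlap. Because these are ratios within an array, the scaling of an array does not enter them, but they rest on the probe sets used. The other probe sets above the filter gave smaller differences: 0.23 for Col1a1, 0.017 for Col1a2 and 0.16 for Col3a1. Beside the type VI difference of 0.16, the excess over type VI thus rests on the brightest probe sets. The type V difference was 0.045, and the other Col5a1 probe set gave 0.13. The size of the excess over type V thus rests on the brightest probe sets too. The ratios were not computed with the other probe sets.

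**Figure D3:**
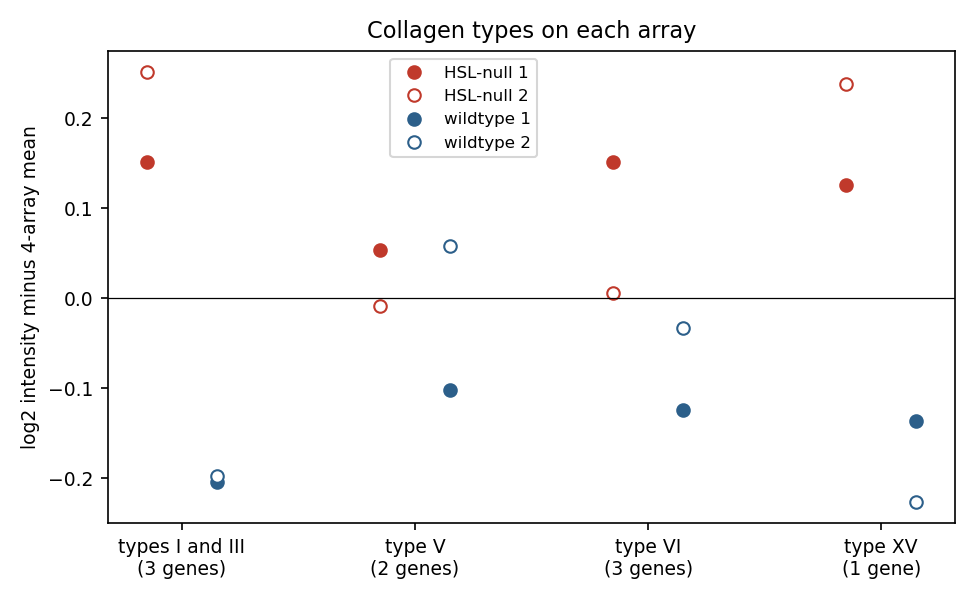
Mean log2 intensity minus the 4-array mean, by collagen type, from the brightest probe set of each gene. HSL-null arrays are red and wildtype arrays blue, array 1 filled and array 2 open. Types I and III lie at 0.15 and 0.25 in the HSL-null pool and at -0.20 in the wildtype pool, and type V is mixed.

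**Figure D4:**
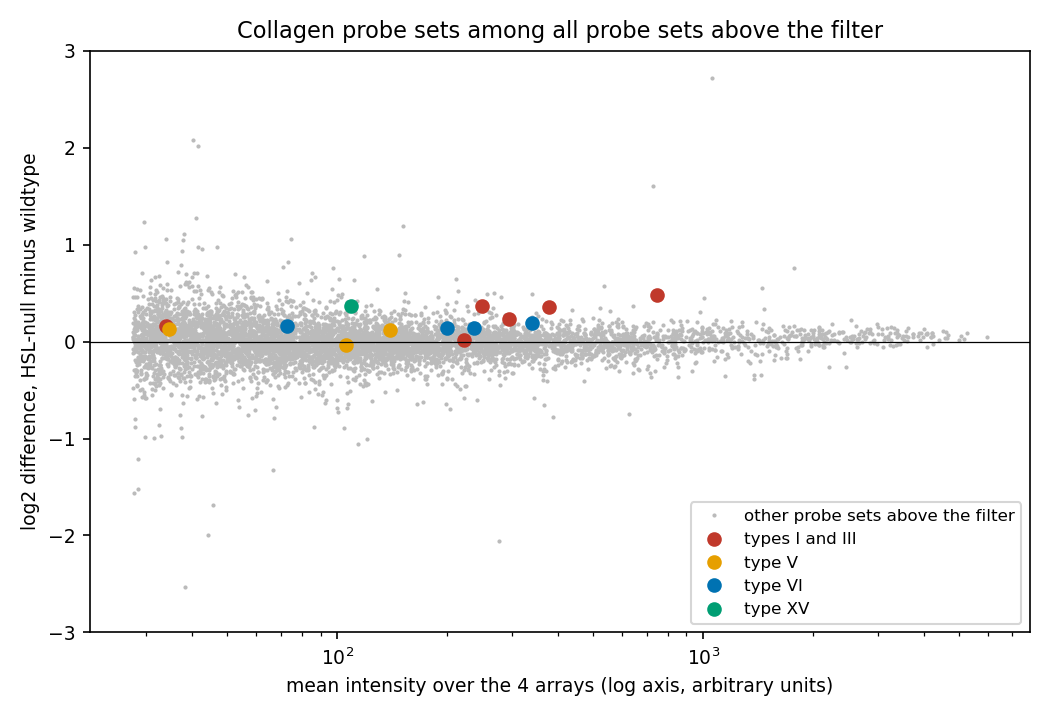
Log2 difference, HSL-null minus wildtype, against the mean intensity over the 4 arrays (log axis, arbitrary units) for the 6208 probe sets above the filter, with the 14 collagen probe sets in colour. The spread of all probe sets narrows as intensity grows, and the brightest Col1a1 probe set, at 0.48, lies near the upper edge at its intensity.

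The array profile of the 9 genes was compared with that of other genes by the Euclidean distance, over the 4 arrays, of centred log2 values from the mean profile of the 9 brightest probe sets. The mean profile was 0.13 and 0.11 on the HSL-null arrays, against -0.15 and -0.089 on the wildtype arrays. The 5 nearest genes were Itm2a at a distance of 0.017, Gimap4 at 0.026, Ss18 at 0.032, Myo5b at 0.032 and Ptdss1 at 0.035. Itm2a, a transmembrane protein gene, had 316.1 and 309.3 on the HSL-null arrays, against 260.3 and 268.0 on the wildtype arrays. The nearest collagen was Col6a3 at 0.10, with 127 other probe sets nearer, and the farthest was Col5a2 at 0.29. A profile over 4 arrays of 2 pools has little detail, and many genes share it.

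Genes that make, modify, bind or degrade collagen were examined as 7 lists of 103 genes, of which the array carried 75, and 46 of those passed the filter. Among these 46, both HSL-null arrays were above both wildtype arrays for 16 and below for 5, against 19.7% and 21.5% of the 4851 named genes above the filter, each by its brightest probe set. Their median log2 difference was 0.081, against -0.0041 over those 4851 genes. None had all 4 array differences at or above 1.5-fold in one direction.

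Proteins that bind the surface of collagen fibrils held more of the higher genes than any other of the 7 lists. Of 11 above the filter, 6 were higher on both HSL-null arrays, 0 lower and 5 overlapped, and the median was 0.12. Over all named genes 19.7% were higher and 21.5% lower. Fmod, which encodes the tendon proteoglycan fibromodulin, had 748.2 and 702.1 on the HSL-null arrays, against 543.1 and 584.5 on the wildtype arrays, a log2 difference of 0.36 ± 0.070. Postn, which encodes periostin, a matricellular protein, had 90.7 and 90.0 on the HSL-null arrays, against 66.6 and 76.3 on the wildtype arrays, a difference of 0.34 ± 0.098. Ogn, the proteoglycan osteoglycin, differed by 0.33 ± 0.048. Sparc, a collagen-binding glycoprotein, had 465.0 and 466.9 on the HSL-null arrays, against 402.3 and 396.9 on the wildtype arrays, a difference of 0.22 ± 0.010. The genotypes were apart for each of these 4.

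Other collagen chains were mixed. Of 8 above the filter, 3 were higher on both HSL-null arrays, 1 lower and 4 overlapped, with a median of 0.12. The shares over all named genes were 19.7% higher and 21.5% lower. Col4a1, a basement membrane chain, differed by 0.15 ± 0.062, and Col18a1, the other multiplexin beside type XV, by 0.14 ± 0.084. Col4a2, the other type IV chain above the filter, overlapped, with a difference of -0.0021 ± 0.16. Col9a1, a cartilage chain, had 33.7 and 59.3 on the HSL-null arrays, against 23.2 and 19.9 on the wildtype arrays, a dim signal with unequal HSL-null duplicates. Col8a1, a short-chain collagen of vessels, was lower, with 24.7 and 29.2 on the HSL-null arrays, against 37.0 and 35.9 on the wildtype arrays. The wildtype mean of Col9a1 (21.55) and the HSL-null mean of Col8a1 (26.95) lay below the filter. Each passed it only through the genotype where it was higher, and both are counted among the 46 related genes.

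Enzymes and chaperones of procollagen folding gave 3 higher, 1 lower and 6 overlapping genes of 10, with a median of 0.069. Over all named genes 19.7% were higher and 21.5% lower. With median centring 3 folding genes were higher and 2 lower, against 13.4% and 28.4% of all named genes. The higher ones were Ppib, a prolyl isomerase (0.18 ± 0.14), Serpinh1, the collagen chaperone HSP47 (0.16 ± 0.10), and Colgalt1, which adds galactose to hydroxylysine (0.15 ± 0.041). P4ha2, a prolyl hydroxylase subunit, was lower at -0.13 ± 0.077. Of the propeptide removal and cross-linking genes, 3 were above the filter and all 3 overlapped, with a median of -0.15: Pcolce, which enhances removal of the C-propeptide, differed by -0.081 ± 0.15 and Loxl1, a lysyl oxidase, by -0.15 ± 0.27. Lox itself was below the filter.

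Collagen receptors had 2 genes above the filter, with a median of -0.081. Ddr1, a collagen-activated kinase, was lower on both HSL-null arrays at -0.16 ± 0.059, and the other overlapped. Of 5 degradation genes above the filter, 2 were higher, 1 lower and 2 overlapped, with a median of 0.13. Over all named genes 19.7% were higher and 21.5% lower. With median centring of the arrays 0 degradation genes were higher and 1 lower, against 13.4% and 28.4% of all named genes. Timp2, a metalloproteinase inhibitor, differed by 0.13 ± 0.076, Ctsk, the collagenolytic cathepsin K, by 0.087 ± 0.066 and Mmp14, a membrane collagenase, by -0.093 ± 0.021. TGF-beta signalling, which induces type I collagen in fibroblasts, gave 2 higher, 1 lower and 4 overlapping genes of 7, with a median of -0.047. With median centring 1 was higher and 1 lower, and the shares over all named genes are those just given. Smad2, a transducer of the signal, differed by 0.26 ± 0.15, and the ligand genes Tgfb2 and Tgfb3 by 0.16 ± 0.14 and -0.18 ± 0.077. Tgfb1 and its receptors were below the filter.

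**Figure D5:**
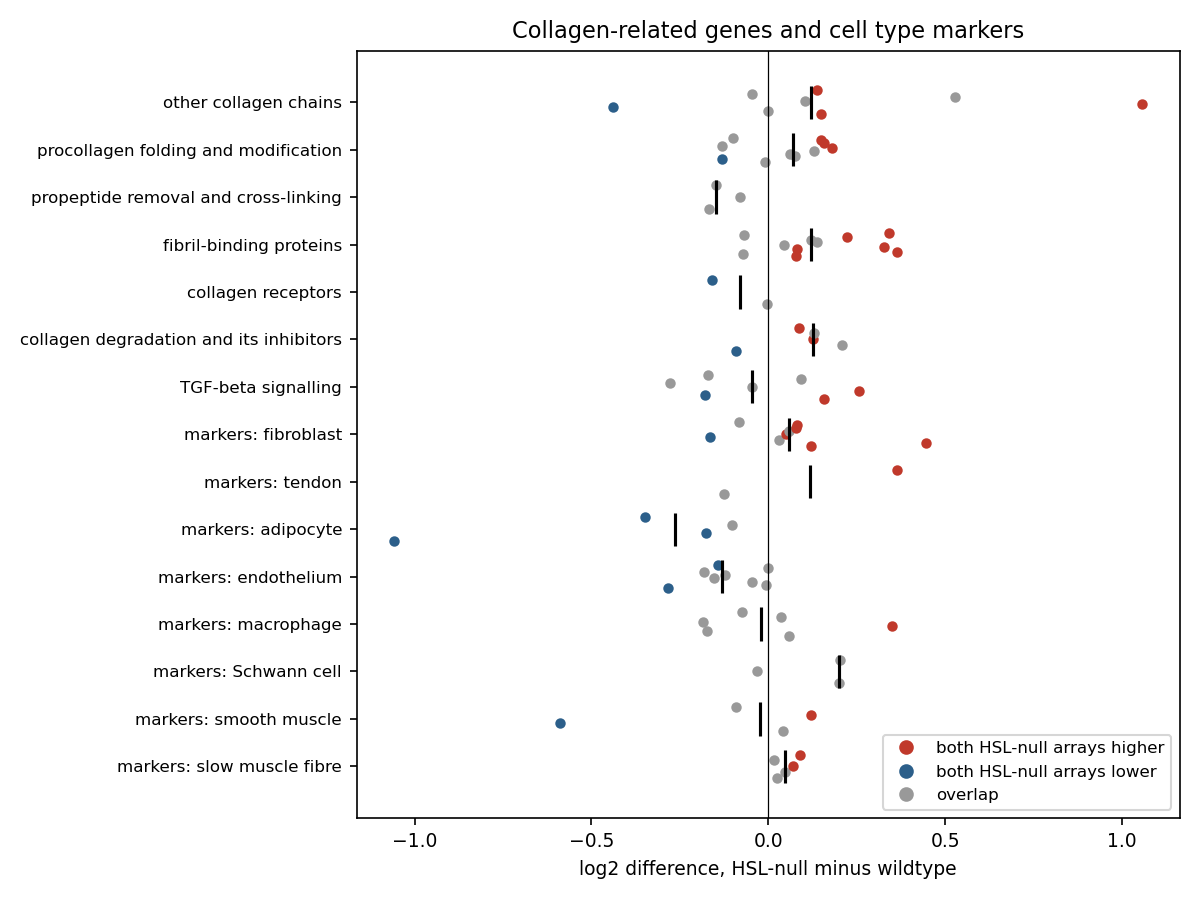
Log2 difference, HSL-null minus wildtype, of each gene above the filter in 7 collagen-related lists and 8 lists of cell type markers. Red points are genes with both HSL-null arrays above both wildtype arrays, blue points the reverse, grey points overlap, and a black line marks the list's median. Fibril-binding proteins have 6 red and 0 blue points, and adipocyte markers 0 red and 3 blue.

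Markers of the cells that could carry collagen RNA were set beside these values. In bulk muscle fewer cells of a type and less RNA per cell cannot be told apart. Of 9 fibroblast markers above the filter, 5 were higher on both HSL-null arrays, 1 lower and 3 overlapped, with a median of 0.057. Over all named genes 19.7% were higher and 21.5% lower. With median centring 3 fibroblast markers were higher and 2 lower, against 13.4% and 28.4% of all named genes. Their 10 members on the array summed to 4484 and 4555 on the HSL-null arrays, against 4578 and 4543 on the wildtype arrays, which overlap. Dcn and Gsn made up most of these sums and went opposite ways. Dcn had 1978 and 1989.2 on the HSL-null arrays, against 1902.8 and 1852.3 on the wildtype arrays. Gsn had 1593.2 and 1579.8 on the HSL-null arrays, against 1757.7 and 1799.5 on the wildtype arrays. The sums thus say little of the other fibroblast markers. Thy1, a surface glycoprotein of fibroblasts, differed by 0.45 ± 0.043 and was higher on both HSL-null arrays, while Pdgfra differed by 0.12 ± 0.10, Lum by 0.082 ± 0.027 and Gsn, which encodes gelsolin, by -0.16 ± 0.018. Tendon markers had 2 genes above the filter, Fmod as above and Scx, the tendon transcription factor, at -0.13 ± 0.18. The 3 tendon markers on the array summed to 1290 and 1134 on the HSL-null arrays, against 1057 and 1110 on the wildtype arrays. The 3 cartilage and bone markers on the array were below the filter, with sums of 38.6 and 46.4 on the HSL-null arrays, against 40.2 and 31.9 on the wildtype arrays.

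Of the 4 adipocyte markers above the filter, 3 were lower on both HSL-null arrays and 0 higher, against 21.5% and 19.7% of all named genes, with a median of -0.26: Adipoq differed by -1.06 ± 0.033, Cebpa by -0.35 ± 0.092 and Fabp4 by -0.18 ± 0.11. The 6 on the array summed to 399.8 and 396.7 on the HSL-null arrays, against 542.2 and 535.0 on the wildtype arrays, with Cidec at or below the floor (the 25th percentile of all values, intensity 5.7) on all 4 arrays. Of 8 endothelial markers, 2 were lower, a share near the 21.5% of all named genes, and 0 were higher, with a median of -0.13 and sums of 1008 and 1003 on the HSL-null arrays, against 1042 and 1086 on the wildtype arrays. The lower ones were Pecam1 at -0.28 ± 0.12 and Vwf at -0.14 ± 0.065, and the other 6 overlapped. The mean difference lay below 0 for all 8 endothelial markers, against 2482 of the 4851 named genes. Macrophage markers had a median of -0.020, with C1qa higher at 0.35 ± 0.17 and the other 5 overlapping, and sums of 594.9 and 585.5 on the HSL-null arrays, against 573.4 and 604.0 on the wildtype arrays. Schwann cell markers had a median of 0.20 and all 3 overlapped, with Mbp at 0.20 ± 0.24, Pmp22 at -0.032 ± 0.13 and sums of 262.7 and 275.9 on the HSL-null arrays, against 277.3 and 243.8 on the wildtype arrays. Smooth muscle markers had a median of -0.025, with Tagln higher at 0.12 ± 0.078, Myh11 lower at -0.59 ± 0.076 and Cnn1 at or below the floor. They summed to 592.5 and 577.6 on the HSL-null arrays, against 585.6 and 642.2 on the wildtype arrays. Slow muscle fibre markers had a median of 0.048, with Tnnc1 at 0.089 ± 0.036 and Tnni1 at 0.069 ± 0.034 both higher, which median centring did not keep (0 of 5). As a sign of RNA quality, the beta-actin control probe sets had a 3′ over 5′ ratio of 0.816 and 0.823 on the HSL-null arrays, against 0.688 and 0.706 on the wildtype arrays, and the Gapdh control had 0.922 and 0.912 on the HSL-null arrays, against 0.955 and 0.927 on the wildtype arrays. The part of these markers and ratios in the collagen differences was not tested.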

How the data were processed

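RNA of pooled soleus muscle was measured on 4 single-colour arrays, 2 per genotype. The deposited table holds 1 linear intensity per probe set and array. The values were scaled before deposit, since the mean with 2% trimmed from each end was 100 on every array; the software and background correction are not given in the labels. No detection calls were used, and the number of arrays limits the precision. 

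The platform annotation gave the gene names: 10855 had 1 symbol, 396 several and 1237 were not listed, and 10839 symbols were matched by gene ID to RefSeq (GRCm38.p6), used for names, neighbours and promoters. Values were floored at the 25th percentile (5.7) and taken to log2, 66 control probe sets were left out, and 6208 probe sets passed the filter. A probe set was called higher or lower when both HSL-null arrays lay on the same side of both wildtype arrays. Errors are SDs of 2 arrays or standard errors from the duplicates. Named were every member probe set, in each list the non-overlapping genes with the largest differences (at most 4) or else the 2 brightest, and the 5 genes nearest in profile. Of the genes on the array, Fmod, Kera, Dcn, Lum and Col2a1 each belong to 2 lists. Lox, Tgfb1, Scx, Cidec, Cnn1, Col4a2 and Dcn were named after their values were seen. The members and lists were chosen with earlier results of these data known. Alternatives covered scaling (limma 3.58.1 in R 4.3.3), floor, filter, arrays left out, pairing and the probe set used. Python 3.11.15, numpy 2.4.6, pandas 2.3.3 and matplotlib 3.10.9 were used.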

Additional observations from a re-analysis of the deposited data

How the results depend on the processing

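The count of collagen probe sets with both HSL-null arrays above both wildtype arrays was 10 of 14, and 7 to 12 under the alternatives run. It was 7 with each array centred on the median of all non-control probe sets, which moved the median of the 6208 probe sets to -0.038 and left 13.4% of them higher and 27.8% lower. Col5a1 93472_at, Col6a1 162459_f_at and Col6a2 then overlapped. Centring on probe sets above the filter, chosen after seeing the data, gave 10, and quantile normalization and cyclic loess gave 12 each. The median log2 difference of 0.16 was 0.13 with median centring, 0.21 with the filter at the 75th percentile (8 of 10 higher), 0.19 with the brightest probe set per gene (7 of 9 higher), and 0.14 to 0.24 with 1 array left out, where 11 or 12 were higher against 32.8% to 35.4% of all, and 0 to 2 lower (1 without HSL-null array 1, 2 without wildtype array 1) against 35.3% to 36.5%. None of the 10 differences changed sign under the alternative scalings. Leaving out an array could not change their sign, since the 10 were called with all 4 array differences above 0. The floors and filters tested did not alter their values. Col1a1 94305_at ranged from 0.44 to 0.52, Col1a2 101130_at from 0.32 to 0.38, Col3a1 98331_at from 0.28 to 0.46 and Col15a1 from 0.31 to 0.42. Of the 46 genes above the filter in the related lists, 16 were higher, and 13 to 15 with median centring, quantile normalization or cyclic loess. With no filter 23 of 75 genes were, each by its brightest probe set. The share over all 12422 non-control probe sets was 15.7%, which counts probe sets and not genes, so the bases are unlike. Of 33 named list genes that did not overlap, 18 moved by over 1.5 times with some array left out. Their sign could not change in these runs, since they were picked as not overlapping. With median centring 6 of the 33 overlapped: Timp2, Ctsk, Tgfb2, Pdgfra, Tnni1 and Tnnc1. These checks of list genes, and those of collagen types, were added after seeing the data.

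The array numbers were also used as a block, although the labels do not say that they mark a shared batch. Same-numbered arrays did not deviate together (r = -0.086 across 6208 probe sets). With the replicate block 10 probe sets were higher, against 25.4% of all, and the median was 0.16. The block compares same-numbered arrays only and keeps the same means. The count therefore could not fall and the median could not move, so this run is no check on either. The 2 arrays of a genotype share 1 pool, and Col3a1 102990_at, Col5a1 101080_at and Col6a1 95493_at had standard errors of 0.32, 0.15 and 0.15, beside a median difference of 0.16 over the collagen probe sets.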
